A study of Mus musculus with 5 samples.

Results

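Integrins, the epithelial laminin LM-332 and the hemidesmosome attach epithelial cells to the sheet of matrix beneath them. Expression of 9 of their genes was followed in mouse salivary gland organoids (mSGOs) and in the submandibular gland the organoids are grown from. The genes were taken by name from the gene lists of the single-cell libraries and were Itgb1, Itgb4, Itga6, Itga3, Itga2, Col17a1, Lama3, Lamb3 and Dst. All 9 were found in all 5 libraries, out of 31053 listed genes in 4 libraries and 32285 in the other.

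Each of the 5 libraries was the only one of its group. The 3 libraries of 7-day mSGOs were an untreated control (7-day control), organoids given 7 Gy of photons and organoids given 7 Gy of protons, with the dose delivered at day 5 of culture and collection at day 7. The 4th library held untreated 11-day mSGOs (11-day control) and the 5th held cells of fresh, non-irradiated submandibular gland (tissue). All came from C57BL/6 mice, aged 8 to 12 weeks by the labels of every library except the 11-day one, which gives no age, and the methods name female animals only. The mSGOs were grown in Matrigel from cells of 4 animals, so that each library pools animals, and by the labels the animals and the run of the 11-day mSGOs were not those of the 7-day mSGOs. Matrigel is itself a basement membrane extract rich in laminin, which the cells of the tissue library did not meet. Cells of dissociated organoids were sorted as propidium iodide negative, that is living, before loading.

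Integrins are pairs of one alpha and one beta subunit that span the cell membrane. The β1 subunit, encoded by Itgb1 and also known as CD29, pairs with many alpha subunits, among them α3 (Itga3), a laminin receptor, and α2 (Itga2), a collagen receptor, and it connects matrix to the actin cytoskeleton. The β4 subunit (Itgb4) pairs only with α6 (Itga6) and forms the core of the hemidesmosome, which connects matrix to keratin filaments through the cytoplasmic linker dystonin (Dst, whose epithelial product is BP230) and the membrane collagen XVII (Col17a1, also known as BP180). LM-332, secreted by the epithelial cells themselves, is the main ligand of α6β4 and α3β1, and 2 of its 3 chains are encoded by Lama3 and Lamb3. In salivary ducts and acini these proteins are known from the outer, basal side of the epithelium, where basal duct cells and myoepithelial cells touch the basement membrane.

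After filtering, 6494 barcodes of the 7-day control, 15610 of the photon, 15325 of the proton, 9484 of the 11-day and 1402 of the tissue library were kept, with 5932095 to 32077855 unique molecular identifiers (UMIs, counts of captured transcripts) in all and a median of 898 to 3025 per barcode. Libraries shared at most 69 barcodes, and at most 0.642% of either library. In the 7-day and tissue libraries only 8.95% to 16.0% of kept barcodes had at least 1% of their UMIs from Malat1, a transcript retained in the nucleus, against 98.8% in the 11-day library, so values are also given for these Malat1-rich barcodes alone. Whether the other barcodes hold intact cells or cell remnants and free RNA was not tested, and every value over all kept barcodes includes them. The tissue library stood apart, since 11597 of its 13547 deposited barcodes had under 200 genes. The organoid libraries carried duct markers and no UMI of the immune marker Ptprc, while in the tissue library 5 basal duct markers summed to 9.61 CPM (UMIs of a gene per 1e6 UMIs of the library), the acinar markers to 42672 CPM and the endothelial markers to 419 CPM. With 1 library per group there was no replicate error and no test of a difference. All intervals are 95% intervals that cover counting error only, because barcodes of one library are not replicates.

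On the mouse genome GRCm39 (GENCODE vM39), Itgb1 lies at chr8:129411876-129460618 (plus strand), Itgb4 at chr11:115865333-115899239 (plus), Itga6 at chr2:71575960-71689757 (plus), Itga3 at chr11:94935296-94967682 (minus) and Itga2 at chr13:114969617-115068636 (minus). Col17a1 lies at chr19:47634783-47680533 (minus), Lamb3 at chr1:192890007-193027705 (plus) and Dst at chr1:33946918-34347742 (plus). The values below count transcripts of each whole gene, mostly from its 3′ end, so isoforms such as those of Dst are not separated and levels are not compared between genes. Promoters of 6 of the 9 genes were taken from RefSeq (GRCm38.p6), with 9 promoters among them, and promoters on the chromosome of Lama3 were left out. The 250 bases before a start site are shown for Col17a1 (chr19:47692043-47692292, minus strand), which was read in every organoid library and gave no UMI in the tissue, for Itgb1 (chr8:128685404-128685653, plus strand), which was read everywhere, and for Lamb3 (the first of its 2 promoters, chr1:193301744-193301993, plus strand), the gene with the largest fold between the 6 clusters of the 7-day control, though not at a coarser clustering. Capitals mark matches, on either strand, to the letters searched. These were GGGCGG for the GC box, TATAAA for the TATA-binding protein, GGAATG for the TEAD factors, TGTGGT for the RUNX factors and TGANTCA for AP-1.
Col17a1: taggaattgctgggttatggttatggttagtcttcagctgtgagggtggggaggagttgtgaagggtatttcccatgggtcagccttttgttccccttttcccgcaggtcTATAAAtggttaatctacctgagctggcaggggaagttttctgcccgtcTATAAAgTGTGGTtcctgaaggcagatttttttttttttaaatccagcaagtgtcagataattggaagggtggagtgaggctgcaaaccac
Itgb1: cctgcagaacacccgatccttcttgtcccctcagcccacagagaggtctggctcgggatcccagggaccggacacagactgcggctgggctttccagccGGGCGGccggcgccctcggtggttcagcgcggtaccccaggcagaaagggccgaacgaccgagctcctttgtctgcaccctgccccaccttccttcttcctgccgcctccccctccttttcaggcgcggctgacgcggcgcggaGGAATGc
Lamb3: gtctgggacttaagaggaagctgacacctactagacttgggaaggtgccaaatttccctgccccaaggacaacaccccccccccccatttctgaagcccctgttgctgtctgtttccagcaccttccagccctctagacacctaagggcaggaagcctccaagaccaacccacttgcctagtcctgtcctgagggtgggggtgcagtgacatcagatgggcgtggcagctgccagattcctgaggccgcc
The Col17a1 promoter held 2 copies of TATAAA and 1 of TGTGGT, the Itgb1 promoter held 1 GGGCGG and 1 GGAATG, and the Lamb3 promoter shown held none of the 5. The second Lamb3 promoter (chr1:193301993-193302242, plus strand), not shown, held 1 GGAATG. No 2 of these motifs overlapped in the 3 windows. Over 32851 mouse promoters of the same length, TATAAA was found in 12.4%, TGTGGT in 14.0%, GGGCGG in 32.7%, GGAATG in 12.6% and TGANTCA in 6.75%, and TGANTCA was in none of the 9 promoters of these genes. A match is a string of letters and not a bound site.

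Summed over the 9 genes, the level was 938 CPM in the 7-day control, 1100.1 CPM after photons, 1046 CPM after protons, 1695 CPM in the 11-day control and 113 CPM in the tissue. The organoids thus carried many more of these transcripts per UMI than the gland, and the 11-day library the most. Within Malat1-rich barcodes the sum was 1271, 1512, 1401 and 1700 CPM in the same 4 organoid libraries and 562 CPM (510 to 617) in the tissue, so that the distances of the 7-day control from the 11-day control and from the tissue were smaller there. In the remaining barcodes of the 7-day libraries it was 689, 893 and 870 CPM.

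**Figure D1:**
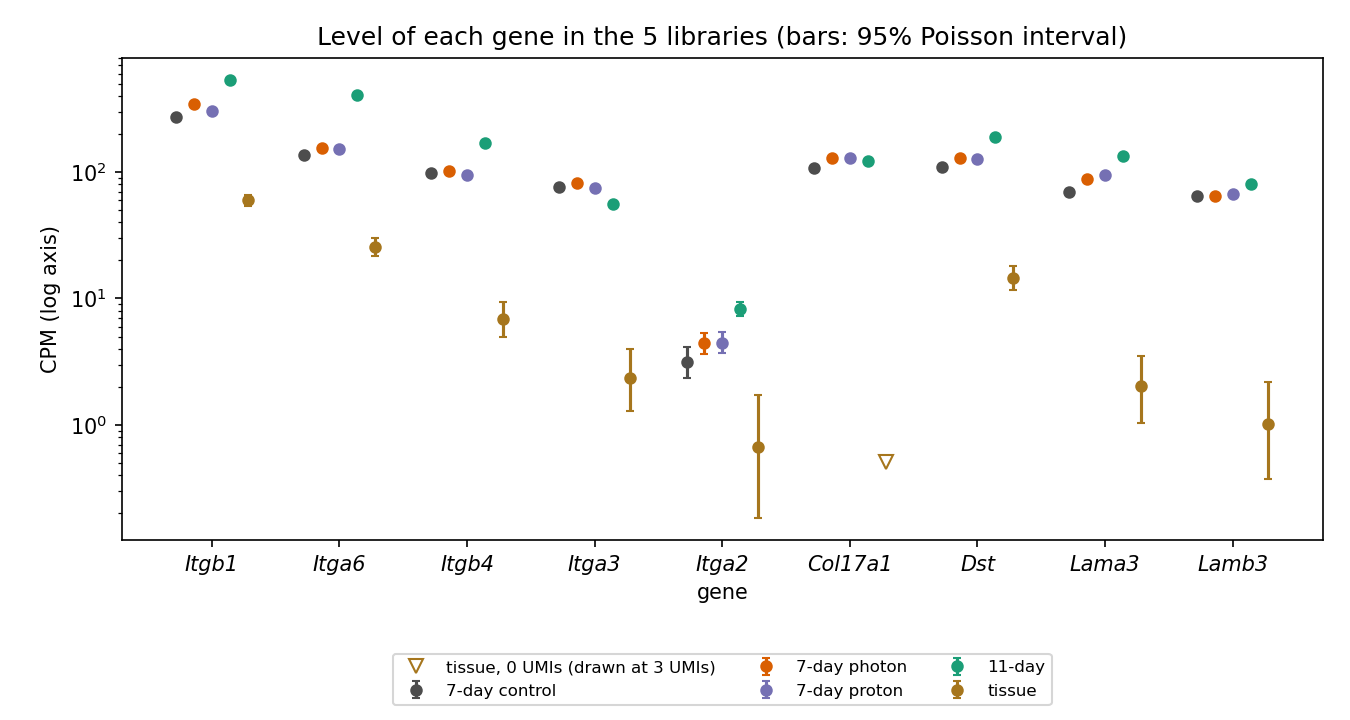
Level of each of the 9 genes in the 5 libraries, in CPM on a log axis, with 95% Poisson intervals as bars and an open triangle at 3 UMIs for the count of 0. The 11-day control lies above the 3 libraries at 7 days for most genes, but not for Itga3 and Col17a1, and the tissue library lies far below them all, with no Col17a1 UMI.

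Among the receptors, Itgb1 was at 274 CPM (266 to 282) in the 7-day control, 346 CPM (338 to 353) after photons, 301 CPM (294 to 308) after protons, 530.2 CPM (522 to 538) in the 11-day control and 59.7 CPM (53.6 to 66.2) in the tissue. Its 5 intervals did not overlap, with the order tissue, 7-day control, proton, photon and 11-day control. Itga6 was at 137 CPM (131 to 143), 156 CPM (151 to 161), 152 CPM (147 to 157), 408 CPM (401 to 415) and 25.5 CPM (21.6 to 29.9) in the same libraries. Here the photon and proton intervals overlapped, and both lay above the 7-day control. Itgb4, the partner of Itga6 in the hemidesmosome, was at 97.6 CPM (92.8 to 103), 101 CPM (97.4 to 105), 95.2 CPM (91.4 to 99.1), 169 CPM (164 to 173) and 6.91 CPM (4.96 to 9.38). Its 3 intervals at 7 days overlapped.

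Itga3 was lower at 11 days than at 7 days. It was at 76.1 CPM (71.9 to 80.5) in the 7-day control, 81.1 CPM (77.6 to 84.7) after photons, 75.1 CPM (71.8 to 78.6) after protons, 55.7 CPM (53.1 to 58.3) in the 11-day control and 2.36 CPM (1.29 to 3.96) in the tissue. Over all kept barcodes Itga3 was the only one of the 9 genes with a lower CPM in the 11-day than in the 7-day control. Within Malat1-rich barcodes Col17a1 was lower as well, at 122 CPM (119 to 126) against 137 CPM (128 to 146). Lamb3 was at 79.9 against 80.8 CPM there, with overlapping intervals. Itga2 was scarce in every library, at 3.16 CPM (50 UMIs), 4.46 CPM (113 UMIs), 4.48 CPM (111 UMIs), 8.26 CPM (265 UMIs) and 0.674 CPM (4 UMIs). Its intervals overlapped among the 3 libraries at 7 days.

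Of the hemidesmosome's other parts, Col17a1 was at 107 CPM (102 to 112) in the 7-day control, 129 CPM (125 to 133) after photons, 129.6 CPM (125 to 134) after protons, 122 CPM (118 to 126) in the 11-day control and 0 CPM in the tissue, where a floor of 3 counts stands at 0.506 CPM. Both irradiated libraries lay above the 7-day control and could not be told from each other. Dst was at 109.8 CPM (105 to 115), 130.1 CPM (126 to 135), 127.6 CPM (123 to 132), 188 CPM (184 to 193) and 14.5 CPM (11.6 to 17.9), again with overlapping photon and proton intervals above the control.

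The LM-332 chains differed from each other. Lama3, at chr18:12466876-12717747 (plus strand), was at 69.0 CPM (65.0 to 73.3) in the 7-day control, 88.2 CPM (84.6 to 91.9) after photons, 94.3 CPM (90.6 to 98.2) after protons, 134 CPM (130 to 138) in the 11-day control and 2.02 CPM (1.05 to 3.53) in the tissue. Lamb3 was at 64.6 CPM (60.7 to 68.7), 64.3 CPM (61.3 to 67.5), 66.4 CPM (63.2 to 69.7), 79.7 CPM (76.6 to 82.8) and 1.01 CPM (0.371 to 2.20). The Lama3 intervals of both irradiated libraries lay above the control, while the 3 Lamb3 intervals at 7 days overlapped.

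The first comparison asked how irradiation bore on these genes 2 days later. Lama3 and Col17a1 were higher after both radiation types, Itgb1 was higher after photons, and none of the 8 genes with enough UMIs was past the fold used for calls in either comparison. To compare libraries, each CPM ratio was taken on a log2 scale with a pseudocount of 1 CPM and set against the median of all genes (those with at least 200 UMIs in the 2 libraries together and at least 20 CPM in the higher one). A gene was called where this relative log2 ratio was at least 0.5 in size. The all-gene median itself was 0.085 for photons and 0.099 for protons against the control. Of 4370 genes compared for photons, 2.63% were called higher and 3.46% lower. For protons, 2.8% of 4354 were called higher and 3.56% lower. Of the 9 genes, 8 passed the minimum in both comparisons, 0 were called in either direction, and Itga2 had too few UMIs. Over all 9 genes, Itga2 included, the median relative log2 ratio was 0.16 for photons, with 7 above zero, and 0.053 for protons, with 6 above zero, against an all-gene median of zero by construction and an SD over all genes of 0.27 and 0.29. Once every barcode was thinned to 1000 UMIs, these medians were −0.16 and −0.12.

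By gene, Lama3 had a relative log2 ratio of 0.26 (0.16 to 0.37) with photons and 0.35 (0.25 to 0.46) with protons, higher than 88.0% and 93.5% of the genes compared. Within Malat1-rich barcodes it was 0.37 and 0.51, the latter past the fold, beside 3.65% of genes called higher with protons there. Col17a1 was at 0.18 (0.10 to 0.27) and 0.17 (0.092 to 0.26), and at 0.31 and 0.30 within Malat1-rich barcodes. These were the 2 genes that kept their sign in all 10 alternative settings of both comparisons, over ranges of 0.19 to 0.47 and 0.29 to 0.51 for Lama3 and of 0.11 to 0.59 and 0.13 to 0.42 for Col17a1. Dst was at 0.16 (0.074 to 0.24) with photons and 0.12 (0.032 to 0.20) with protons, and Itga6 at 0.10 (0.028 to 0.18) and 0.053 (−0.023 to 0.13). Both turned negative once every barcode was thinned to 1000 UMIs, to −0.097 and −0.12 for Dst and to −0.18 and −0.15 for Itga6.

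Itgb1 was lower with protons than with photons, short of the fold used for calls. It was at 0.25 (0.20 to 0.30) after photons and at 0.036 (−0.018 to 0.091) after protons. Taken directly between the irradiated libraries, its relative log2 ratio of proton to photon was −0.22 (−0.26 to −0.17), lower than for all but 7.98% of 4387 genes. It was −0.25 within Malat1-rich barcodes and negative in all 10 alternative settings (−0.30 to −0.12). The same ratio was −0.11 (−0.19 to −0.027) for Itgb4 and −0.13 (−0.22 to −0.038) for Itga3, but within Malat1-rich barcodes both intervals included zero, at −0.088 (−0.22 to 0.041) and −0.072 (−0.21 to 0.067). For Itga6 it was −0.055 (−0.12 to 0.0097). Itga3 was at 0.0052 (−0.097 to 0.11) with photons and −0.12 (−0.22 to −0.012) with protons, and Itgb4 at −0.032 (−0.12 to 0.061) and −0.13 (−0.23 to −0.042). Within Malat1-rich barcodes Itga3 was at 0.16 and 0.094 and Itgb4 at 0.18 and 0.10, so that the 3 negative values of these genes were positive there. Lamb3 was at −0.091 (−0.20 to 0.023) and −0.061 (−0.17 to 0.054), intervals that include no difference from the all-gene median. Between the irradiated libraries 0.684% of genes were called higher and 0.912% lower with protons, and none of the 8 genes was called, with a median of −0.046 over all 9. Itga2, at 0.31 (−0.083 to 0.92) and 0.30 (−0.093 to 0.91), was too sparse to be placed.

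**Figure D2:**
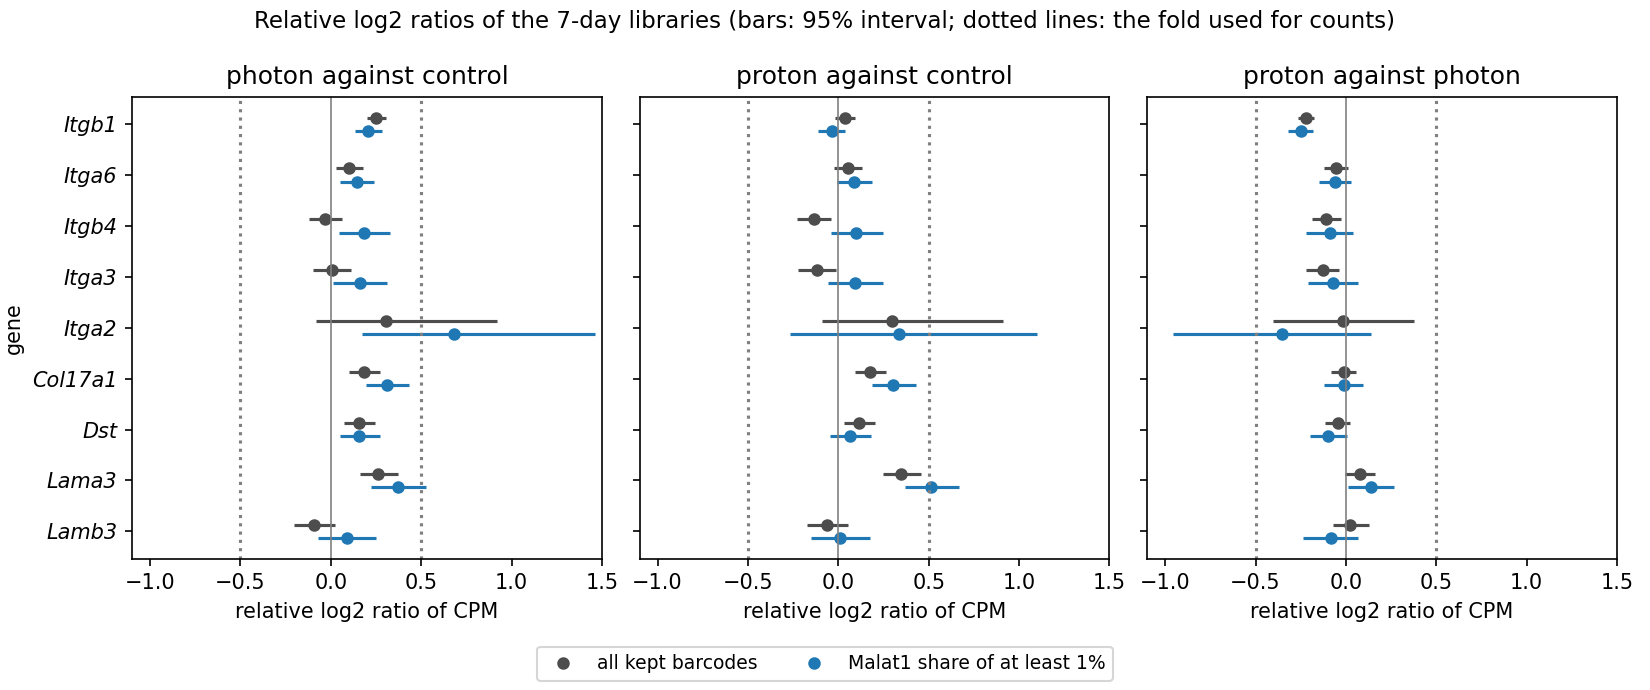
Relative log2 ratio of each gene for photons and for protons, each against the 7-day control, and for protons against photons, over all kept barcodes (grey) and over Malat1-rich barcodes (blue), with 95% intervals as bars and the fold used for calls as dotted lines. Lama3 lies at 0.26 and 0.35 and Itgb1 at 0.25 with photons but 0.036 with protons.

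The photon and proton comparisons share the 7-day control, so a deviation of that library enters both. That library also had the highest share of Malat1-rich barcodes of the 3, at 16.0% against 10.0% and 8.95%, and the part of this in the ratios was not tested beyond the values within Malat1-rich barcodes.

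The next comparison set 11-day against 7-day mSGOs. Itga6 was higher and Itga3, Col17a1 and Lamb3 were lower relative to other genes, while Itgb1 and Lama3 lay near the all-gene median over all kept barcodes. The relative log2 ratio was 0.61 (0.55 to 0.68) for Itga6, −1.41 (−1.52 to −1.31) for Itga3, −0.77 (−0.85 to −0.69) for Col17a1 and −0.66 (−0.76 to −0.55) for Lamb3. These 4 were past the fold, 1 higher and 3 lower of the 8 that passed the minimum. That count stood against 35.9% of 6624 genes called higher and 34% called lower, so most genes were called in this comparison. Itgb1 was at −0.012 (−0.057 to 0.039), Lama3 at −0.018 (−0.10 to 0.089), Itgb4 at −0.18 (−0.25 to −0.090) and Dst at −0.19 (−0.26 to −0.11). The median over all 9 genes, Itga2 included, was −0.18, with 2 above zero, and the SD over all genes was 1.46. Itga2, under the minimum, was at 0.19 (−0.018 to 0.89).

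Itga3 was the steadiest of these values. It was lower than all but 11.6% of genes, was at −1.43 within Malat1-rich barcodes, and stayed negative in all 10 alternative settings (−1.52 to −0.44). Its CPM was lower also without reference to other genes, at 56.0 against 76.2 over the genes listed in both libraries. Col17a1 and Lamb3 were lower in 9 of 10 settings. The exception was the plain CPM ratio, in which both were higher in the 11-day library, because the all-gene median lay at 0.97 on the log2 scale. Itga6 was higher in all 10 settings, but within Malat1-rich barcodes its value was 0.13 (0.060 to 0.22), which was not past the fold. In the same barcodes Dst was at −0.57 (−0.66 to −0.48) and was past it, beside 29.7% of genes called lower there. Itgb1 was at −0.26 (−0.32 to −0.20) there, an interval that excludes the all-gene median, and its sign was the same in 5 of 10 settings.

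Between these libraries the ratio of a gene moved with the length of its locus. In 5 equal groups of genes by span, the median relative log2 ratio was −0.84, −0.49, −0.075, 0.47 and 1.40 from the shortest to the longest. The spans of the 9 genes ran from 32.4 kb for Itga3 to 400.8 kb for Dst. Itgb4 and Itga3 were in the group of 23.2 to 43.8 kb, Itgb1 and Col17a1 in that of 43.8 to 89.8 kb, and Itga6, Itga2, Lama3, Lamb3 and Dst in the longest, whose quartiles were 0.68 and 2.32. All 5 genes of the longest group lay below its lower quartile. By its canonical transcript Lamb3 spans 43.4 kb and Itga6 69.9 kb, which would put Lamb3 in the group with the median of −0.075 and Itga6 in that with the median of 0.47, and Itga6 was above the latter. The matrix headers name version 3.0.1 of the software for the 7-day and tissue libraries and 7.0.0 for the 11-day one. The part of intron counting, run, animals and day in these ratios cannot be told apart.

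Against the 7-day mSGOs, the fresh gland carried little of these genes. Its UMIs were 354 for Itgb1, 151 for Itga6, 86 for Dst, 41 for Itgb4, 14 for Itga3, 12 for Lama3, 6 for Lamb3, 4 for Itga2 and 0 for Col17a1. The CPM in the 7-day control was 4.59-fold that in the tissue for Itgb1, 5.38-fold for Itga6, 7.58-fold for Dst, 14.1-fold for Itgb4, 32.3-fold for Itga3, 34.1-fold for Lama3 and 63.9-fold for Lamb3. For Itga2 it was 4.69-fold, on 4 tissue UMIs. For Col17a1 it was at least 211-fold higher, computed against a floor of 3 counts in the tissue library. The receptor subunits used by many cell types, Itgb1 and Itga6, were thus nearer to the organoid level than Col17a1 and the laminin chains. Within Malat1-rich barcodes these folds were smaller, at 1.28 for Itgb1 (379 CPM in the 7-day control and 296 CPM in the tissue), 1.71 for Itga6 (223 and 131 CPM), 1.84 for Dst (168 and 91.4 CPM), 6.54 for Itgb4, 6.58 for Lama3, 11.5 for Itga3, 31.0 for Lamb3 on 2 tissue UMIs and 1.17 for Itga2 on 3. Col17a1 was at least 34.9-fold higher there, against the same floor of 3 counts.

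Set against other genes, 7 of the 8 genes that passed the minimum were past the fold and lower, and 0 were higher, beside 32.2% of 4249 genes called lower and 30.5% called higher. The all-gene median of this comparison lay at −1.79 on the log2 scale. The relative log2 ratio was −3.24 for Lamb3, −2.75 for Lama3, −2.74 for Itga3, −1.85 for Itgb4, −1.05 for Dst and −0.60 for Itga6, and Itgb1 was at −0.39 (−0.57 to −0.26). Itga2, under the minimum, was at 0.47 (−2.38 to 1.00), the only one of the 9 above zero. Its tissue level of 0.674 CPM lay under the pseudocount of 1 CPM, and its sign was the same in 6 of 10 alternative settings. Itgb4, Itga3, Col17a1, Lama3 and Lamb3 were past the fold in all 10 alternative settings and Itga6 in 6 of them. Within Malat1-rich barcodes 5 genes, not 7, were past the fold and lower, beside 32.0% of 3860 genes. There Itga6 was at −0.33 (−0.65 to −0.047) and Dst at −0.44 (−0.82 to −0.098), neither past the fold, and Itgb1 at 0.078 (−0.13 to 0.27), an interval that includes the all-gene median. In a sum over barcodes, fewer cells of a type and less RNA per cell cannot be told apart. The 5 basal duct markers, none of them at 0, moved the same way, from 11176 CPM in the 7-day control to 9.61 CPM in the tissue, and their part in the result was not tested.

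Shares of barcodes with a UMI were compared as well. After thinning each barcode to 1000 UMIs and leaving out shallower ones, Itgb1 was detected in 20.5% of the 7-day control, 25.3% of the photon, 23.7% of the proton, 39.4% of the 11-day and 4.25% of the tissue barcodes. Unthinned, these were 32.8%, 32.1%, 29.2%, 76.7% and 12.0%, so that the order of the 3 libraries at 7 days differed from that after thinning. Thinning left out 3937, 6721, 8553, 150 and 15 barcodes. Among thinned Malat1-rich barcodes the shares were 31.1%, 29.7%, 28.0%, 40.0% and 21.7%, so that the control was the highest of the 3 at 7 days, with overlapping intervals. Itgb4 was detected in 9.27%, 8.99% and 9.27% of the 7-day barcodes, in 1404 of 9334 of the 11-day and in 0.360% of the tissue barcodes after thinning, and in 17.5%, 12.8%, 12.1%, 40.0% and 2.71% before. Col17a1 was detected in 9.35%, 11.1%, 11.3% and 11.4% of the organoid barcodes after thinning, and in 18.1%, 15.4%, 15.5% and 29.9% before. Among thinned Malat1-rich barcodes it was 14.6% (12.5 to 17.0), 18.5% (16.6 to 20.6), 15.3% (13.4 to 17.3) and 11.6% (11.0 to 12.3), so that the 11-day control was the lowest there. In the tissue it was found in 0 of 1402 barcodes, which allows up to 0.214% of barcodes with a UMI by the floor of 3 counts (0.263% by the exact interval) and sets no limit on the share of cells that express it. Macrophage-like barcodes of the tissue held an Itgb1 UMI in 1.33% of cases, against 68.1% of endothelial-like barcodes. For Itga6 it was 0 of 75, which allows up to 4% by the same floor, against 49.3%. The macrophage-like barcodes also had 3 Itgb4 UMIs. Their shares cannot serve as a measure of free RNA, because barcodes with an immune marker can hold Itgb1. At a coarser clustering, an unnamed tissue cluster with Ptprc at 589 CPM held an Itgb1 UMI in 71.4% of its barcodes.

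Within the tissue the genes were carried by different barcodes. Of 9 clusters, 4 could be named from markers. The 9 clusters held 207 of the 354 Itgb1 UMIs, and the other 147 lay in 60 barcodes outside them, in clusters too small to be described at this resolution. That was more Itgb1 UMIs than in any of the 9 clusters, the endothelial-like one with 98 included. The endothelial-like cluster of 69 barcodes, with the endothelial adhesion molecule Pecam1 at 1761 CPM, had Itgb1 at 417 CPM (338 to 508), Itga6 at 285 CPM (221 to 362), Dst at 102 CPM (65.4 to 152) and Lama3 at 42.5 CPM (20.4 to 78.2). Itgb4 had 1 UMI there, and Lamb3 and Col17a1 had none. With 4.92% of the tissue barcodes, this cluster held 27.7% of the tissue's Itgb1 UMIs, 44.4% of its Itga6 UMIs, 27.9% of its Dst UMIs and 10 of its 12 Lama3 UMIs. At a coarser resolution the endothelial-like cluster had 147 barcodes, with Itgb1 at 261 CPM (213 to 316) and Itga6 at 183 CPM (143 to 230). Itga6 was within the range of the organoid libraries at both resolutions and Itgb1 at the finer one only.

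The acinar-like cluster of 94 barcodes, deeper than the others with a median of 9410 UMIs, held 59 of the Itgb1, 37 of the Itga6, 26 of the Dst and 14 of the 41 Itgb4 UMIs, at 27.7, 17.4, 12.2 and 6.57 CPM. The striated or granular duct-like cluster of 141 barcodes had Itgb1 at 40.0 CPM (12 UMIs) and Itgb4 and Itga6 at 16.7 CPM each (5 UMIs). Macrophage-like barcodes had 1 UMI of Itgb1, 3 of Itgb4 and 1 of Dst. Clusters of the tissue thus differed in Itgb1 and Itga6, while the laminin chains and Itga2 gave too few UMIs to place outside the endothelial-like cluster. At the coarser resolution, an unnamed cluster of 63 barcodes with Ptprc at 589 CPM held 147 Itgb1 UMIs (381 CPM), with Itga6 and Dst at 57.1 CPM each and with Col17a1, Lama3 and Itga3 at 0.

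In the 7-day control, 6 clusters were found, 1 of which could be named (cornifying-like, 101 barcodes, led by Krt23 and Sprr1a). Every one of the 9 genes had its highest value in the same unnamed cluster, the 5th, of 449 barcodes led by Fermt1 and Ptprz1, though its intervals overlapped those of other clusters for Itgb4, Col17a1, Lama3 and Itga2. It had 8130 UMIs per barcode at the median and a median Malat1 share of 3.43%. There Itgb1 was at 500.2 CPM (478 to 523), Itga6 at 293 CPM (276 to 310), Dst at 203 CPM, Col17a1 at 154 CPM (142 to 167), Itgb4 at 130.2 CPM (119 to 142), Itga3 at 110.5 CPM, Lama3 at 98.4 CPM and Lamb3 at 98.1 CPM. Of 10 cycling markers, 5 (Mki67, Top2a, Cenpf, Tpx2 and Hmmr) were at least 2-fold over the rest in this cluster, but none was among its leading genes and it was left unnamed.

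The cornifying-like cluster was the lowest for Col17a1 and Itga3, at 26.1 CPM each, for Itgb4, at 32.3 CPM, and for Lamb3, at 7.46 CPM, with intervals below those of every other cluster. For Itgb1, at 73.4 CPM (55.9 to 94.6) there, and for Dst and Lama3, at 29.8 CPM each, the intervals overlapped those of the 3rd cluster, as did that of Itga6, which was at 35.6 CPM (30.7 to 41.1) in the 3rd and 53.5 CPM in the cornifying-like one. Itga2 had 0 UMIs in the cornifying-like cluster, where the floor of 3 counts is 3.73 CPM, and could not be ranked. From the highest to the lowest cluster the fold was 13.1 for Lamb3, 8.22 for Itga6, 6.82 for Itgb1, 6.79 for Dst, 5.91 for Col17a1, 4.23 for Itga3, 4.03 for Itgb4 and 3.30 for Lama3, though the lowest Lamb3 value rested on 6 UMIs. At the coarser resolution the library gave 3 clusters, none of them named, and the fold was 2.05 for Lamb3, 6.31 for Itga6, 4.49 for Itgb1, 4.56 for Dst, 2.11 for Col17a1, 1.19 for Itgb4 and 2.27 for Lama3, with Itga3 at 60.3 to 90.2 CPM. The 3rd cluster had a median Malat1 share of 0.0391%, and there Itgb1 was at 84.2 CPM and Dst at 36.0 CPM while Itgb4, at 86.7 CPM, stayed close to its level of 82.7 to 106 CPM in the 1st, 2nd and 4th clusters. Cluster depth and Malat1 moved with these levels, and clusters are made from the same cells' expression, so these differences are descriptions.

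Each library was also split by Malat1 alone. The relative log2 ratio of Malat1-rich to other barcodes was 1.32 for Itga6 in the 7-day control, 1.10 with photons and 1.05 with protons. For Itgb1 it was 0.66, 0.49 and 0.41. For Itgb4 it was −0.17, 0.24 and 0.26, the lowest of the 9 genes in each of the 3 libraries. The 11-day control differed from this, with Itgb1 the lowest, at −0.11 (−0.31 to 0.095), and Itgb4 at 0.43 (0.0049 to 0.89), on few Malat1-poor barcodes.

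In the 11-day control 8 clusters were found and the levels were flatter for Itgb1, which ran from 357 to 649 CPM. Its highest level was in the cycling-like cluster of 1029 barcodes, the only cluster that could be named. That cluster also had the highest Itga3, at 100.7 CPM, against 22.0 CPM in the cluster led by Psca and Sprr2d and 23.3 CPM in that led by Dcpp1 and Klk1b11. Col17a1 was at 174.5 CPM in the cycling-like cluster and 173 CPM in the 2nd, and at 53.3 CPM in the Psca cluster and 26.0 CPM in the Dcpp1 cluster. Lamb3 was at 21.7 CPM in the Psca and 39.4 CPM in the Dcpp1 cluster, against 79.3 to 113 CPM in the 1st, 2nd, 3rd and cycling-like clusters. The Sprr genes encode cornified envelope proteins of squamous cells, and Dcpp1 and Klk1b11 encode secreted salivary proteins. These 2 clusters held the least Col17a1 and Itga3 of the 8, though the intervals of the small 8th cluster overlapped that of the Psca cluster for Col17a1 and those of both for Itga3. Lama3 did not follow this for the Psca cluster, at 122 CPM there and 76.6 CPM in the Dcpp1 cluster, against 133 to 155 CPM elsewhere. Itga6 and Dst were highest in the 8th cluster, at 1118 and 511 CPM, a cluster of 107 shallow barcodes with a median Malat1 share of 10.9%. Itga2 was at 21.8 CPM in the cycling-like cluster, 19.8 CPM in a small cluster led by Acta2 and 12.0 CPM in the Psca cluster, and at no more than 4.97 CPM in each of the others except the 8th, where 0 UMIs allow up to 35.7 CPM by the floor of 3 counts.

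**Figure D3:**
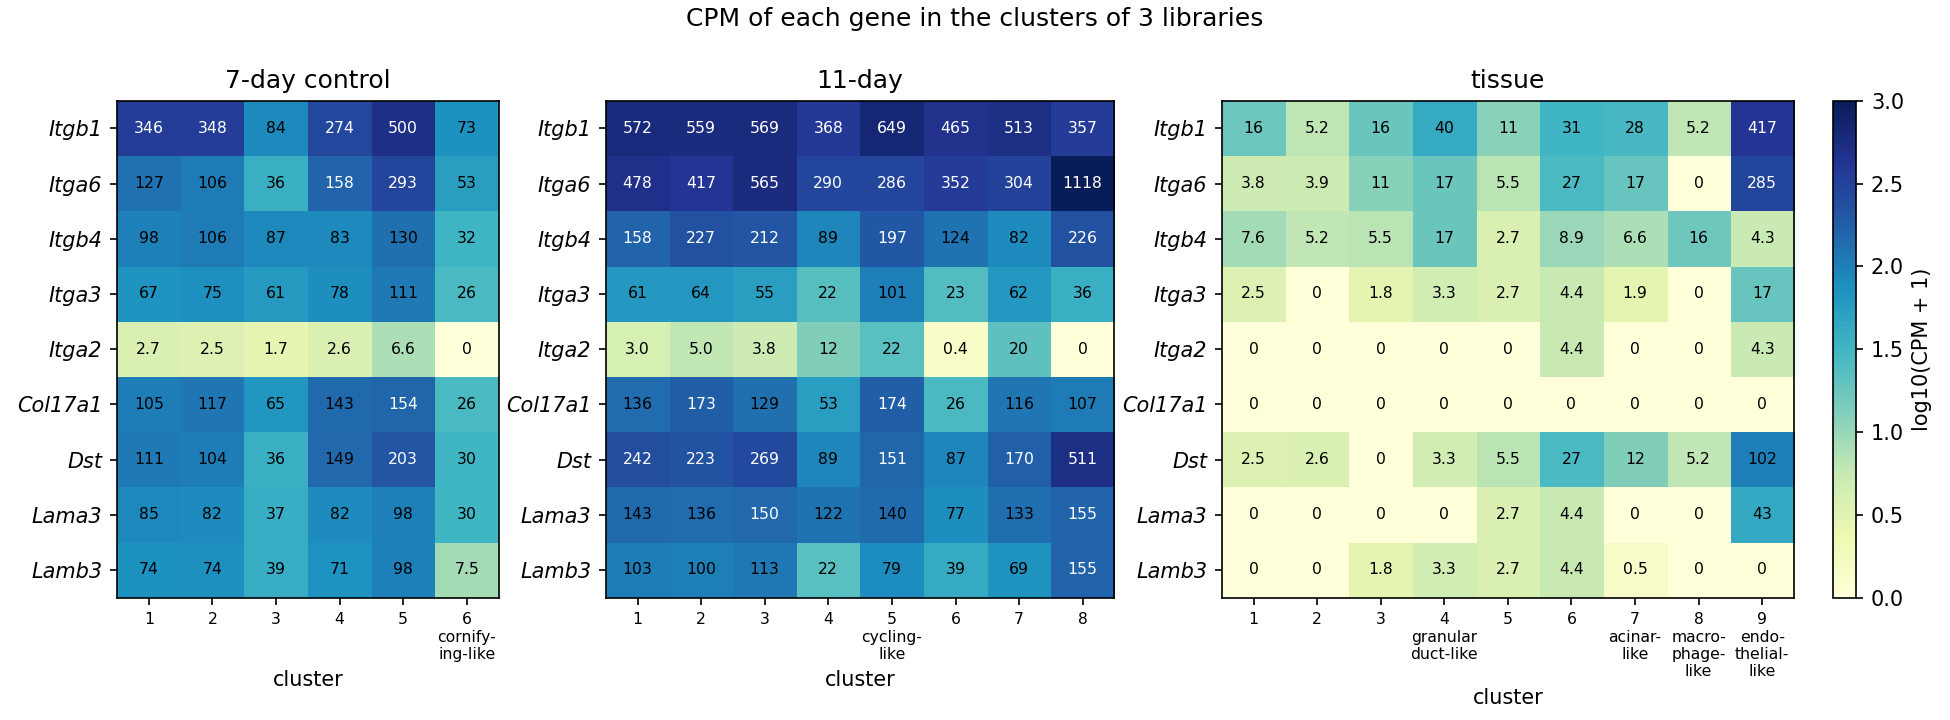
Level of each gene (rows) in each cluster (columns) of the 7-day control, the 11-day control and the tissue, with the CPM printed in each cell and coloured by log10(CPM + 1). In the 7-day control the 5th cluster is the highest for all 9 genes, and of the tissue clusters drawn the endothelial-like one is the highest for Itgb1 and Itga6. Tissue barcodes outside these clusters, with 147 of the 354 Itgb1 UMIs, are not drawn.

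Since basal and luminal duct cells are told apart by their keratins, Malat1-rich barcodes were also ordered by the UMI share of basal keratins (and separately of luminal keratins) and cut into a lowest, middle and highest part, with those keratins left out of the CPM. Col17a1 went with the basal keratins. It was at 106, 143 and 158 CPM from the lowest to the highest part in the 7-day control, 147, 180.0 and 197 CPM with photons and 78.8, 133 and 155 CPM at 11 days, and at 158, 184 and 180.0 CPM with protons. Itga6 was at 173, 227 and 264 CPM by basal keratins in the 7-day control but at 438, 427 and 371 CPM in the 11-day control, so its order was the opposite there. Itgb4 was at 79.5, 106 and 119 CPM in the 7-day control.

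The α3 subunit and the laminin chains did not go with the basal keratins at 7 days. Itga3 was at 104, 93.5 and 78.2 CPM in the 7-day control and 112, 108 and 81.5 CPM with protons, and Lamb3 at 86.6, 82.8 and 76.2 CPM and, with photons, at 108, 93.7 and 72.3 CPM. Lama3 was at 137, 128 and 90.2 CPM with photons, with no such order in the control (76.9, 95.3 and 86.3 CPM). The part with most basal keratin held the lowest level of Itga3 and of Lamb3 in all 3 libraries at 7 days. The intervals of the lowest and highest part overlapped, however, for Lamb3 in the control and with protons and for Itga3 with photons. At 11 days the order was the opposite for Itga3, at 45.6, 59.9 and 61.8 CPM, and Lama3 was at 116, 138 and 149 CPM and Lamb3 at 71.6, 88.6 and 80.3 CPM.

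By luminal keratins, Itgb1 was at 282, 394 and 438 CPM from the lowest to the highest part in the 7-day control, 344, 452 and 541 CPM with photons and 237, 374 and 491 CPM with protons. In the 11-day control the order was the opposite, at 556, 547 and 496 CPM. Itgb4 was at 69.4, 107 and 123 CPM in the 7-day and 183, 179 and 150.2 CPM in the 11-day control, and Itga6 at 194, 214 and 253 CPM and at 458, 439 and 345 CPM. Col17a1 at 11 days was at 154, 133 and 86.3 CPM, Dst at 230, 211 and 136 CPM and Lamb3 at 92.7, 88.9 and 61.1 CPM. In 11-day mSGOs these genes were thus lowest where luminal keratins were highest, which was not so for any of the 3 receptor subunits just named at 7 days. Nor was it so for Dst and Lamb3 in the 3 libraries at 7 days. Col17a1 was lowest there in the 7-day control (134, 145 and 132 CPM) and with photons (178, 192 and 158 CPM), with overlapping intervals of the lowest and highest part. With protons it was not (168, 181 and 171 CPM). Depth moved with the parts at 7 days, with medians of 4871, 5970 and 6502 UMIs by luminal keratins in the control, and less at 11 days, with 2893, 3024 and 3202. The parts are ranges and not cell types, and 225 of 1037 barcodes of the control lay within 10% of a boundary by luminal and 283 by basal keratins.

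**Figure D4:**
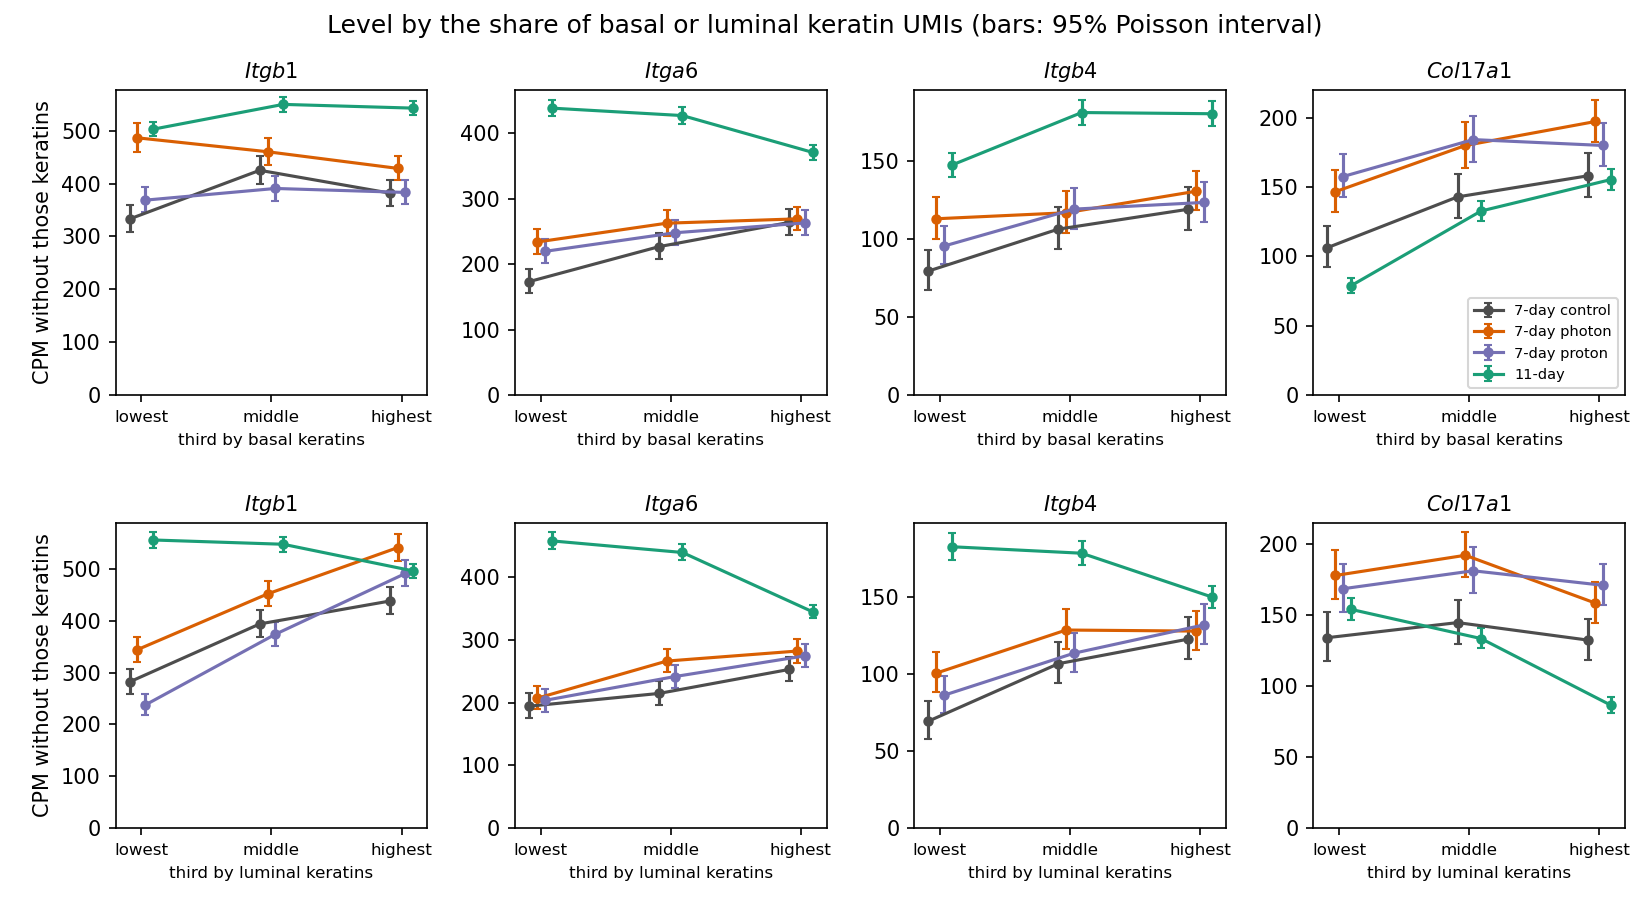
Level of Itgb1, Itga6, Itgb4 and Col17a1, in CPM with 95% Poisson intervals, in the lowest, middle and highest part of Malat1-rich barcodes by basal and by luminal keratins, one line per organoid library. Itgb1 is higher with luminal keratins in the 3 libraries at 7 days and lower in the 11-day control, and Col17a1 is lowest in the part with least basal keratin in all 4.

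At 7 days a subunit was detected more often in barcodes that held its partner. In Malat1-rich barcodes thinned to 2000 UMIs, Itga6 was detected in 42.7% (34.6 to 51.0) of those with an Itgb4 UMI and 32.5% (29.1 to 36.1) of those without in the 7-day control, in 47.2% and 34.3% with photons, in 42.3% and 32.0% with protons and in 56.7% and 51.4% at 11 days. Itga3 was detected in 21.1% (17.1 to 25.5) of barcodes with and 12.2% (9.40 to 15.5) without an Itgb1 UMI in the control, in 23.8% and 11.8% with photons and in 23.4% and 14.5% with protons, but in 10.7% and 10.2% at 11 days. Dst was detected in 38.0% of barcodes with and 24.4% without Itgb4 in the control, in 38.4% and 26.1% with photons, in 35.1% and 24.2% with protons and in 32.5% and 27.9% at 11 days. The intervals of barcodes with and without the partner overlapped for Itga6 and Itgb4 in the control and were apart in both irradiated libraries, and the difference was smaller at 11 days for each of these pairs.

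Col17a1 was paired with Itgb4 and Lama3 with Lamb3 in the same way. Col17a1 was detected in 26.7% (19.8 to 34.5) with and 22.8% (19.8 to 26.1) without Itgb4 in the control, in 35.2% and 26.1% with photons, in 34.6% and 26.4% with protons and in 23.8% and 20.3% at 11 days. Lama3 was detected in 22.3% (15.7 to 30.1) with and 16.3% (13.7 to 19.2) without Lamb3 in the control, in 28.9% and 17.6% with photons, in 25.4% and 22.1% with protons and in 23.1% and 21.9% at 11 days. The intervals with and without the partner were apart for Col17a1 with photons and at 11 days and for Lama3 with photons, and overlapped in the other libraries. Each barcode has a fixed number of UMIs here, so the UMI total itself does not enter. Cluster membership and differences that go with the original depth of a barcode can still enter, and were not separated.

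Over the 23 clusters of the 7-day control, 11-day control and tissue, genes whose level was most like the sum of the 9 included Arhgap10, Ipo7, Plk2, Ssb, Snai2, Rgs12, Sgk1, Notch1 and Rab2a. Pearson's r of log2(CPM + 1) was 0.974 to 0.968 among 10100 genes with at least 200 UMIs. Snai2 encodes a transcription factor of basal epithelial cells, Notch1 a Notch receptor and Sgk1 a serum- and glucocorticoid-regulated kinase. The 9 genes themselves had r of 0.984 for Itgb1, 0.970 for Lama3, 0.962 for Itga6, 0.958 for Dst, 0.935 for Itga3, 0.890 for Col17a1, 0.881 for Lamb3, 0.874 for Itgb4 and 0.671 for Itga2. Itgb1 is part of the sum and the most abundant of it, and clusters of a library share its depth and its run, so r is a description and no p is given.

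Other genes of the same machinery were taken in 5 lists of integrin alpha subunits (13 genes), integrin beta subunits (6), laminin chains (9), hemidesmosome and basement membrane partners (13) and integrin adaptors (14). After irradiation 1, 1, 2, 3 and 9 of them had enough UMIs, and none was past the fold with photons or protons, beside 2.63% of all genes called higher and 3.46% lower with photons and 2.8% and 3.56% with protons.

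At 11 days 1, 3, 4, 9 and 13 genes of the lists had enough UMIs, of which 1, 2, 1, 4 and 5 were past the fold and higher and 0, 0, 0, 2 and 3 lower, beside 35.9% of all genes called higher and 34% lower. Among the receptors, Itgav, whose product αv pairs with several beta subunits, was at 1.42, and its partners Itgb8 and Itgb6 at 4.97 and 1.05. Itgb8 had 3 UMIs in the 7-day and 2296 in the 11-day library. In the matrix, Lamc1, the γ1 chain of many laminins, was at 1.39 and the collagen IV chains Col4a6 and Col4a5 at 3.80 and 2.09, and Dag1, which encodes the laminin receptor dystroglycan, was at 0.85. Of the adaptors, Vcl (vinculin) was at 1.84, Ptk2 (focal adhesion kinase) at 1.47 and Fermt1 at 1.40. The 5 genes called lower, which include some named after their values were seen, were Fermt2 at −1.09, Src at −0.70, Zyx at −0.62, Col4a1 at −0.67 and Cd151 at −0.58. Of these, only Fermt2 was lower also in plain CPM, at 29.2 against 31.9. These values are subject to the same relation to gene span as those of the 9 genes.

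In the tissue 1, 1, 2, 5 and 6 genes of the lists had enough UMIs, with 0, 1, 0, 3 and 2 higher and 0, 0, 2, 0 and 2 lower past the fold, beside 30.5% of all genes called higher and 32.2% lower. Of the laminin chains, Lama5, of the laminins found in most epithelial basement membranes, was lower, at −1.70. Collagen IV chains, the network of every basement membrane and made by endothelial and stromal cells, were higher, Col4a1 at 3.38 and Col4a2 at 2.92, and Dag1 was at 0.59. Itgb5, a partner of αv, was at 1.13, and of the adaptors Tln1 (talin) was at 1.87, Fermt2 at 1.64, Parva at −1.15 and Vcl, named after its value was seen, at −0.66. In plain CPM the direction turned for Itgb5 (18.5 in the tissue and 29.9 in the 7-day control), Fermt2 (28.8 and 31.9) and Dag1 (10.3 and 24.8), while it held for Tln1 (46.2 and 43.4), Col4a1 (54.3 and 17.3) and Col4a2 (33.5 and 14.7). Lama3 and Lamb3 were thus lower in the tissue than in the 7-day mSGOs, while collagen IV was higher.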

How the data were processed

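The 5 libraries were made with 10x Genomics 3′ chemistry, and the authors deposited 1 matrix of raw UMI counts per gene and barcode for each. The submitters' processing notes name Cell Ranger 5 and mm10, the study's methods name GRCm39, and the matrix headers name software 3.0.1 for the 7-day and tissue libraries and 7.0.0 for the 11-day one. Whether introns were counted is not given in the sources used here. Samples were grouped by the labels, and 0 columns were left unmapped.

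Barcodes with at least 200 genes and at most 5% mitochondrial counts were kept. Doublets were removed as the barcodes with the highest Scrublet scores, up to 0.8% per 1000 barcodes in each library, which took 378 of the 7-day control, 2674 of the photon, 2559 of the proton, 16 of the tissue and 855 of the 11-day barcodes. Kept barcodes held 15803686, 25348009, 24792766, 5932095 and 32077855 UMIs in that order. Counts were summed per library or cluster and given in CPM, and library ratios were taken with a pseudocount of 1 CPM and centred on the median of genes with at least 200 UMIs in the 2 libraries together and at least 20 CPM in the higher. Intervals were exact at 95% (Poisson for CPM, conditional binomial for ratios, Clopper-Pearson for shares), and a floor of 3 counts stood for 0. With 1 library per group no p-value was computed.

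Each library was clustered on 2000 variable genes, 30 components and 15 neighbours with Leiden at resolution 0.8 (0.4 as an alternative) in scanpy 1.11.5 with leidenalg 0.10.2, numpy 2.4.6 and scipy 1.17.1. A cluster of at least 50 barcodes was named where at least 3 markers of a type were 2-fold over the rest and its leading genes did not go against the name. Gene positions were matched to GENCODE vM39 by identifier for 30144 of 31053 and 31674 of 32285 genes. The ratios were tested on simulated data. The genes, lists and markers were chosen with earlier results of these data known. All 9 genes are named, the other lists by at most the 3 largest past the fold per comparison, and the like-pattern genes as the 10 highest correlations, except that some genes under these rules are not reported here. The alternatives were doublets kept, all deposited barcodes, at least 500 or 2500 genes, 200 to 2500 genes, Malat1-rich barcodes, thinning to 1000 UMIs, a pseudocount of 0.1 CPM, centring over genes with at least 10 UMIs and no centring.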

Additional observations from a re-analysis of the deposited data

How the results depend on the processing

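Each comparison was recomputed under 10 alternatives, and of the 50 medians over all 9 genes that resulted, 35 stayed within the counting interval of the middle gene. For photons against the control the median of 0.16 became 0.26 over all deposited barcodes, 0.45 with at least 2500 genes per barcode and −0.16 with each barcode thinned to 1000 UMIs. For protons the median of 0.053 became 0.14 over all deposited barcodes, 0.18 with at least 2500 genes, −0.12 after thinning and 0.15 without centring. Between protons and photons −0.046 became −0.14 with at least 2500 genes. For the 11-day against the 7-day control −0.18 became −0.26 in Malat1-rich barcodes, −0.30 after thinning, −0.013 with centring over genes of at least 10 UMIs and 0.79 without centring. For the tissue −1.85 became −1.52 with at least 2500 genes, −2.72 with centring over genes of at least 10 UMIs and −3.64 without centring. Without centring, Col17a1 and Lamb3 in the 11-day comparison turned from lower to higher, at 0.20 and 0.31. Of 512 recomputed ratios, sums and cluster levels, 345 stayed within the counting interval of the reported value, 165 lay outside it and these 2, whose reported values were past the fold, changed sign. With smaller values included, 59 of 450 recomputed ratios of single genes had the opposite sign to the reported one. At the coarser clustering the fold between clusters of the 7-day control was 2.05 for Lamb3, not 13.1. Causes of the shifts not set by the alternative's own construction were not tested. No paired analysis was possible because each group had 1 library, and for the same reason no replicate could be left out. Depth limits Itga2, at 50 UMIs in the 7-day control and 4 in the tissue, and the tissue values of Lamb3, Lama3 and Itga3, at 6, 12 and 14 UMIs.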
